A study of Homo sapiens with 8 samples.

Results

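MIR210HG, NEAT1, MALAT1, H19 and UCA1 are long noncoding RNA (lncRNA) genes that have been linked to the response to low oxygen. They were chosen by name, with earlier results of these data known, as 5 of the 18702 lncRNA genes of the annotation. For each, every HIF-1β peak that overlapped the gene body or the 10 kb on either side of it was collected, which gave 49 of the 18645 peaks in 8 lists, and these peaks merged into 11 regions. Chromatin immunoprecipitation with an antibody to HIF-1β followed by sequencing (ChIP-seq) had been performed in PC3 prostate, T47D breast, A549 lung and HCT-116 colorectal cancer cells, each an established line, with 2 replicates of each. All 8 libraries came from cells kept at 0.5% oxygen for 16 h, and no normoxic or control library was analysed here. A peak thus marks where binding of HIF-1β was called in hypoxic cells and not what hypoxia changed. Whether any peak came from unspecific signal was not tested. The labels do not say whether replicates were separate cultures, so p-values measure only the spread between these libraries, which may be technical.

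Hypoxia-inducible factor (HIF) is a dimer of an α subunit, which oxygen-dependent hydroxylation marks for destruction through VHL, and the constitutive β subunit HIF-1β. In hypoxia the α subunit persists, the dimer forms, and it binds DNA at a short core motif, ACGTG or GCGTG, within hypoxia response elements. The antibody here was to HIF-1β, so which partner it had at a peak was not measured. Besides coding genes its targets include noncoding transcripts. MIR210HG is the host transcript of miR-210, a microRNA widely used as a marker of hypoxia. NEAT1 is the scaffold of nuclear paraspeckles, MALAT1 is an abundant nuclear RNA of splicing speckles, UCA1 is a transcript first described in bladder carcinoma, and H19 is a maternally expressed imprinted RNA and the host of miR-675.

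Sequences are shown for 5 regions where peaks of at least 4 lists coincided, to show the core motifs under the peaks described below. In each region the stretch with the most motifs was taken, which need not be where binding centred. Each is 250 bases of GRCh37, read 5′ to 3′ in the direction in which the lncRNA is transcribed, and capitals mark the core motif, ACGTG or GCGTG, on either strand (CACGT and CACGC are its reverse complement). The stretch at the start of MIR210HG is chr11:568785-569034 on the minus strand, and the other 4 are on the plus strand. They are chr11:65189650-65189899 at the start of NEAT1, chr11:65222575-65222824 downstream of NEAT1, chr11:65264857-65265106 at the start of MALAT1 and chr19:15939595-15939844 near the start of UCA1.
MIR210HG start: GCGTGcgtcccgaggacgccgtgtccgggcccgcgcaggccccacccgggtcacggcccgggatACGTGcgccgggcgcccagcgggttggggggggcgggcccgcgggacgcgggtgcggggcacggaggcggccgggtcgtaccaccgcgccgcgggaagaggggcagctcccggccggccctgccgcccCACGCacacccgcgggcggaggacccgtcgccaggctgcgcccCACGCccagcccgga
NEAT1 start: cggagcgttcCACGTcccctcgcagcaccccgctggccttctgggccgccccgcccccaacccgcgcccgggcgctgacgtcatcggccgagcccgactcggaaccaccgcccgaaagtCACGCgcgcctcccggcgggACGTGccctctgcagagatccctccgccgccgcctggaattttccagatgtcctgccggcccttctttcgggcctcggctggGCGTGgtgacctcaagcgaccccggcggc
NEAT1 downstream: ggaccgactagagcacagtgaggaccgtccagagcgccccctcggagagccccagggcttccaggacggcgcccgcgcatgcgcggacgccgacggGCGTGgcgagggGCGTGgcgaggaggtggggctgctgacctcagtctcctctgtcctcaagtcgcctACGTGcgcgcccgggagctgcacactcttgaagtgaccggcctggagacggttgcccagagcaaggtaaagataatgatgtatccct
MALAT1 start: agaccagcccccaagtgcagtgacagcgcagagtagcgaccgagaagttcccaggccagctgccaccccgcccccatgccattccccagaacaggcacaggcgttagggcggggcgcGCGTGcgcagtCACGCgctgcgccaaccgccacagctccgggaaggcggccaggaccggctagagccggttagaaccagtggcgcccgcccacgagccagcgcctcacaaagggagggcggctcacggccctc
UCA1 start: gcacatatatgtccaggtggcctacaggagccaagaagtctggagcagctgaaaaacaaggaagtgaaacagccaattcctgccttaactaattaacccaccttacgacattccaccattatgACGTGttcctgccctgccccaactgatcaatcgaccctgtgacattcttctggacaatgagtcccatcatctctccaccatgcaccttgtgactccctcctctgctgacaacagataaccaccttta

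The stretches at the starts of MIR210HG and NEAT1 held 4 core motifs each, that downstream of NEAT1 held 3, that at the start of MALAT1 held 2, and that at the start of UCA1 held 1. The mature microRNAs that MIR210HG hosts are shown from RefSeq (table of GRCh38.p14), since the peak at the start of this gene lay over or next to their precursor, with the seed, bases 2 to 8, in capitals. The strand known as the abundant guide is miR-210-3p.
hsa-miR-210-3p: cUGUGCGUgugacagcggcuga
hsa-miR-210-5p: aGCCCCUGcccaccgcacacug

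The deposited lists give an interval and a score for each peak but no reads, and the sequencing depth is therefore unknown. The number of peaks was 1042 and 2891 in replicates 1 and 2 of PC3 cells, 3061 and 2910 in replicates 1 and 2 of T47D cells, 1768 and 1270 in replicates 2 and 3 of A549 cells, and 3790 and 1913 in replicates 2 and 3 of HCT-116 cells. Of the PC3 peaks, 93.1% of replicate 1 had a counterpart in replicate 2 and 33.6% of replicate 2 had one in replicate 1, so the shorter list was nearly contained in the longer. The same held in HCT-116 cells, at 46.5% of replicate 2 and 92.1% of replicate 3. Because no source states the scale of the score, each peak was described by the percentage of peaks in its own list that scored at least as high, so that a small percentage is a strong peak.

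HIF-1β peaks lay at the 5′ ends of 4 of the 5 lncRNA genes in at least 1 line, and no list had a peak near H19. A site was counted where peaks of both replicates of a line overlapped by at least 1 bp. In PC3 cells, 3 of the 5 genes had a site in the window (MIR210HG, NEAT1 and UCA1), where 2.94% of all lncRNA genes did (550 of 18702, 95% exact binomial interval 2.7 to 3.19%). In T47D cells, 4 of the 5 had one (all but H19), against 5.92% of lncRNA genes (interval 5.59 to 6.27%). In A549 cells, 2 of the 5 had one (MIR210HG and NEAT1), against 2.75% (interval 2.52 to 3%), and in HCT-116 cells 4 of the 5 (all but H19), against 5.23% (interval 4.91 to 5.56%). The intervals cover counting error only. The background was not matched to the 5 genes for length or for expression, which was not examined here. Median length was 6231.5 bp over all lncRNA genes, and the 5 genes ran from 2801 to 22767 bp. Within 1 kb of the 5′ end of the gene the same 3, 4, 2 and 4 genes had a site, where the share of all lncRNA genes was 0.995% for PC3, 2.66% for T47D, 0.834% for A549 and 2.21% for HCT-116 cells. The 5 genes were picked for their link to hypoxia and with earlier results of these data known. These shares therefore stand beside the counts as a background and not as a test. MIR210HG and NEAT1 had a site in all 4 lines, as did 175 lncRNA genes (0.936%).

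**Figure D1:**
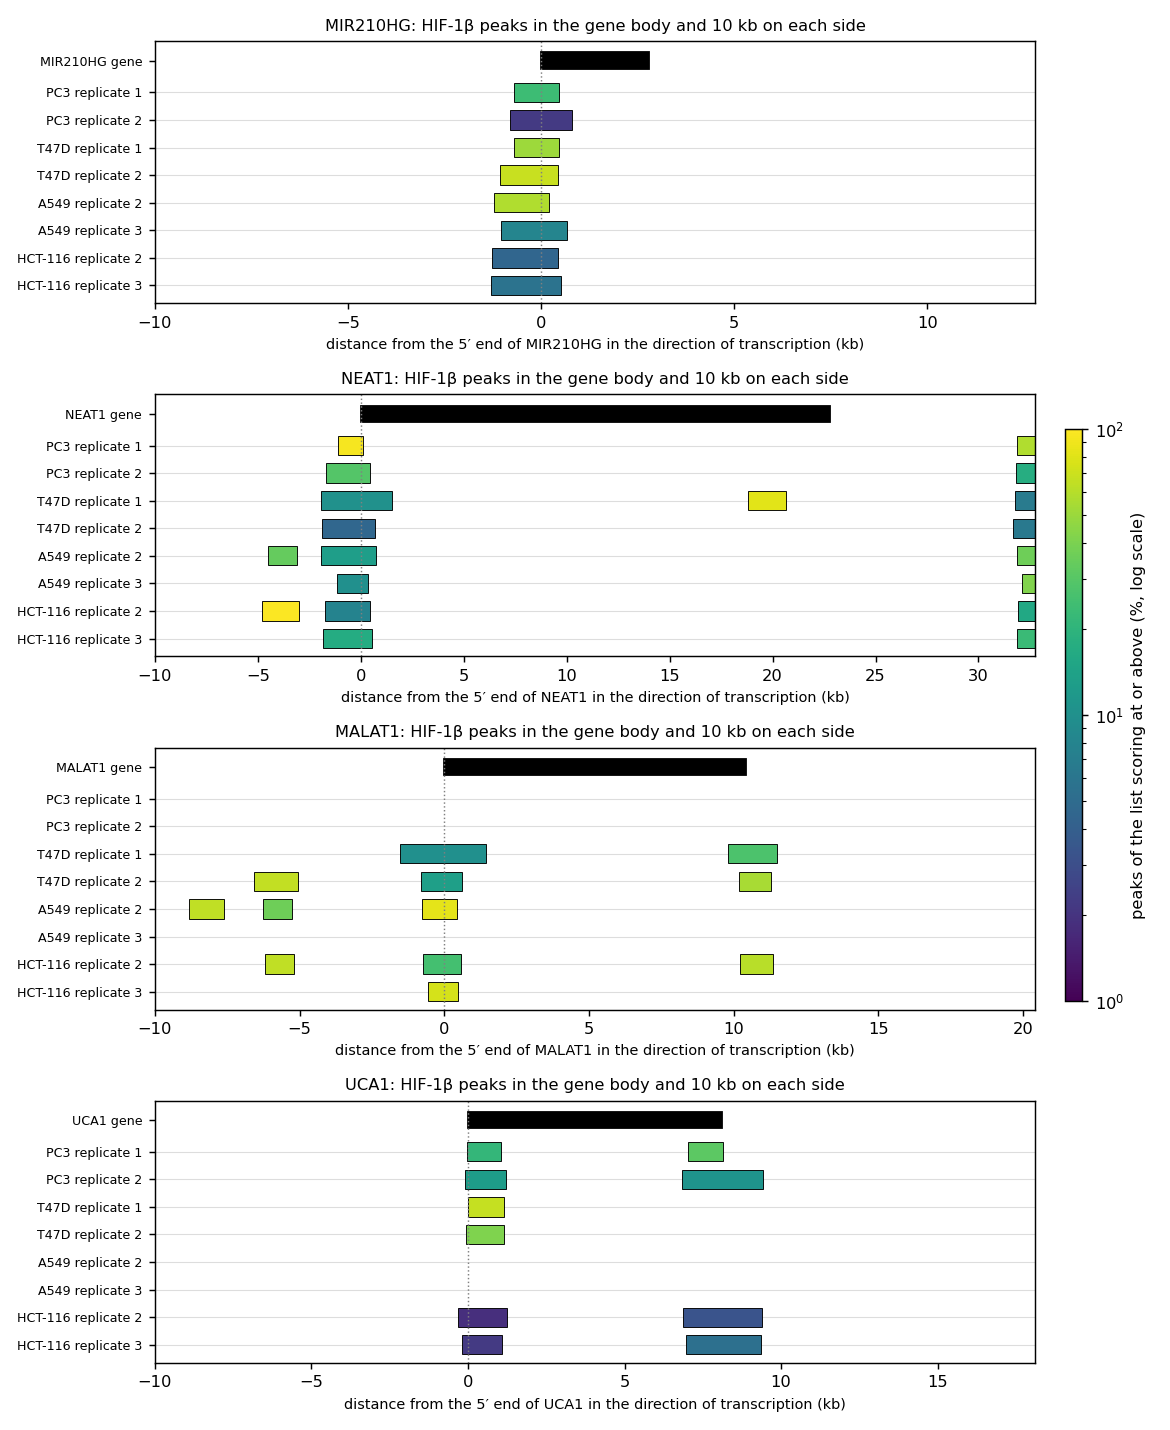
Peaks of the 8 lists around MIR210HG, NEAT1, MALAT1 and UCA1, with distance from the 5′ end of the gene in kb on the x axis, the gene body in black and each peak coloured by the percentage of peaks of its list scoring at or above it (log scale). Peaks are drawn to the edge of the window, 10 kb beyond the gene, and those at the right edge of NEAT1 extend past it. Peaks of all 8 lists cover the 5′ ends of MIR210HG and NEAT1, peaks of 5 lists cover that of MALAT1, and peaks of 6 lists lie at that of UCA1.

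At MIR210HG (11:565657-568457, minus strand) there was a single region, 11:567667-569749, present in all 8 lists. It covered the 5′ end of the gene and overlapped an exon of it, and the nearest start of a coding gene, PHRF1, lay 6721 bp away. The stem-loop of MIR210 (11:568089-568198) lay under the peak in 7 of the 8 lists, and in replicate 2 of A549 cells the peak ended 53 bp from it. The score was 166 and 997 in replicates 1 and 2 of PC3 cells, 83 and 68.3 in replicates 1 and 2 of T47D cells, 81 and 411 in replicates 2 and 3 of A549 cells, and 696 and 517 in replicates 2 and 3 of HCT-116 cells. As a percentage of peaks scoring at or above, these were 23.7 and 2.18%, 50.7 and 68%, 57.7 and 8.11%, and 4.49 and 5.8%. Both replicates of HCT-116 cells and replicate 2 of PC3 cells ranked high and both of T47D cells low, but the replicates of PC3 and of A549 cells were far apart, and the values of A549 cells lay on either side of those of replicate 1 of PC3 cells and replicate 1 of T47D cells.

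NEAT1 (11:65190245-65213011, plus strand) had 2 regions in all 8 lists. The first, 11:65188302-65191779, covered the 5′ end of NEAT1 and that of ENSG00000290057. Its percentages were 93.4 and 29.3% in replicates 1 and 2 of PC3 cells, 10.1 and 4.6% in those of T47D cells, 13 and 9.84% in replicates 2 and 3 of A549 cells, and 7.78 and 16.9% in those of HCT-116 cells. PC3 cells were the lowest in rank, outside the range of the other 3 lines, whose values overlapped in part.

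The second region of NEAT1 in all 8 lists, 11:65221918-65223497, lay at the far edge of the window, with its centre 32462 bp downstream of the 5′ end and beyond the 3′ end of the gene. It covered the start of the lncRNA ENSG00000291174 and the pseudogene FAUP4, so that NEAT1 is not the nearest gene to it. Its percentages were 58 and 17.6% in replicates 1 and 2 of PC3 cells, 6.66 and 6.49% in T47D cells, 36.4 and 42% in replicates 2 and 3 of A549 cells, and 15.8 and 22.6% in HCT-116 cells. T47D cells ranked highest in both replicates, HCT-116 cells came next and A549 cells after them, and PC3 cells overlapped both of these. A further region upstream of NEAT1, centred at -3889 bp from its 5′ end, had a peak in 1 replicate of A549 cells (33.4%) and 1 of HCT-116 cells (97.7%), and a region inside the gene, of sequence repeated elsewhere in the genome, had one in replicate 1 of T47D cells only (82%).

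MALAT1 (11:65265111-65275544, plus strand), the next member along the chromosome, had peaks in fewer lists. The region over its 5′ end, 11:65263588-65266558, was at 9.96 and 13.2% in replicates 1 and 2 of T47D cells, 25.2 and 74.8% in replicates 2 and 3 of HCT-116 cells and 83.2% in replicate 2 of A549 cells, with no peak in replicate 3 of A549 cells or in PC3 cells. T47D cells ranked above all other lists, and the peak of A549 cells had no counterpart in the other replicate. The nearest site to MALAT1 was 41748 bp away in PC3 cells and 41928 bp away in A549 cells, and in both it was the region downstream of NEAT1. At the 3′ end of MALAT1, 9 bp from the start of its antisense transcript TALAM1, there were peaks in both replicates of T47D cells (27.2 and 54.3%) and in replicate 2 of HCT-116 cells (61.5%), also over sequence with many copies in the genome. Upstream, a region centred at -5810 bp from the 5′ end had peaks in 3 lists, each of a different line, at 66.1% in T47D, 36.3% in A549 and 64.7% in HCT-116 cells, always replicate 2, and another had 1 peak in A549 cells (64.5%).

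UCA1 (19:15939016-15947138, plus strand) held the highest-ranked single peak of the 5 genes. At its 5′ end the region 19:15938692-15940248 scored 1433 and 1141 in replicates 2 and 3 of HCT-116 cells, which placed it at rank 71 of 3790 and rank 42 of 1913, or 1.87 and 2.2%. It was at 21 and 12.6% in replicates 1 and 2 of PC3 cells and at 67.1 and 40.9% in those of T47D cells, and A549 cells had no peak. The replicates of each line lay together and no 2 lines overlapped. The peaks reached the annotated 5′ end in 5 of these 6 lists and stopped 4 bp short of it in replicate 1 of T47D cells.

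At the 3′ end of UCA1, the region 19:15945839-15948451 covered the starts of the antisense lncRNAs LINC01764 and ENSG00000288618. It was at 3.3 and 5.38% in replicates 2 and 3 of HCT-116 cells and 31.4 and 10.8% in replicates 1 and 2 of PC3 cells, and T47D and A549 cells had no peak there. Again HCT-116 cells ranked above PC3 cells in both replicates. In A549 cells the nearest site to UCA1 was 1620497 bp away and the nearest single peak 736008 bp. The shared intervals of the 2 UCA1 regions matched each other over 489 bp at 90% identity, and how reads that fit more than 1 place were treated is not given in the sources used here.

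**Figure D2:**
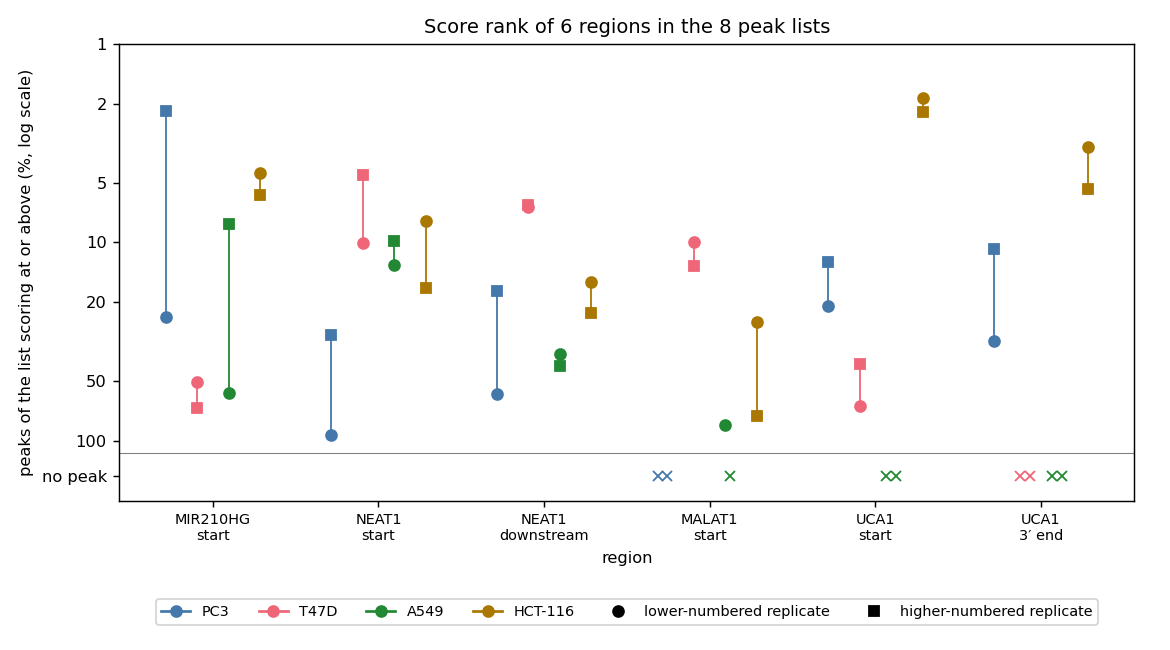
Percentage of peaks scoring at or above the peak of each region (y axis, log scale, reversed so that strong peaks are at the top) in the 8 lists, for the 6 regions with a peak in at least 4 lists. Circles are the lower-numbered and squares the higher-numbered replicate of a line, a bar joins them, and crosses mark lists with no peak. At the start of UCA1 the lines separate, with HCT-116 cells near 2%, while at MIR210HG the replicates of PC3 and A549 cells are far apart.

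H19 (11:2016396-2025782, minus strand) had no peak within 10 kb in any of the 8 lists. The nearest single peak was 50500 bp from the gene, in replicate 2 of PC3 cells with a score of 60.1. The nearest site of both replicates was 163518 bp away in T47D cells, near the start of SYT8, 197346 bp away in PC3 cells, near TH, and 611207 bp away in HCT-116 cells, near BRSK2. In A549 cells it was 1446733 bp away and was the site at MIR210HG, which lies on the same chromosome arm.

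Whether the rank of a gene's best peak differed between lines by more than between replicates was tested over every way to divide 8 libraries into 4 pairs, with 100% given to a library without a peak (exact permutation test, one-sided, Benjamini-Hochberg adjustment over the 4 genes with peaks, smallest possible p = 0.0095). The best peak was the highest-scoring one in the window and not always that at the 5′ end. For NEAT1 it was the downstream region in both lists of PC3 cells and in replicate 1 of T47D cells. In replicate 2 of PC3 cells that of UCA1 was at the 3′ end. In replicate 2 of A549 cells that of MALAT1 lay upstream of the gene. For UCA1 the replicates of a line differed by 9.2 percentage points on average, against 48.7 over all pairings (exact permutation p = 0.0095, adjusted p = 0.038). For MALAT1 the values were 29.1 and 47.4 points (exact permutation p = 0.14, adjusted p = 0.19), for NEAT1 13.7 and 16.4 points (p = 0.1, adjusted p = 0.19) and for MIR210HG 22.4 and 31.3 points (p = 0.31, adjusted p = 0.31). A difference between lines was thus detected for UCA1 and was not detected for the other 3 with 8 libraries. The 100% setting made both lists of A549 cells equal for UCA1, and both of PC3 cells equal for MALAT1, as none of these had a peak. The UCA1 call was lost when ranks were used as numbers (adjusted exact permutation p = 0.095), and without replicate 2 of PC3 cells (0.076) or without replicate 2 or replicate 3 of HCT-116 cells (0.11 for each). By region, a choice made after the data were seen, the start and the 3′ end of UCA1 and the start of MALAT1 all had an adjusted exact permutation p of 0.057 over 6 regions (unadjusted p = 0.0095, 0.029 and 0.029).

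Of the 49 peaks of these genes, 40 (81.6%) overlapped a peak of the other replicate, where 62.7% of all 18645 peaks did. All 5 peaks in each list of PC3 cells did so, 6 of 7 in each list of T47D cells, 3 of 7 and 3 of 3 in replicates 2 and 3 of A549 cells, and 6 of 9 and 6 of 6 in replicates 2 and 3 of HCT-116 cells. Of the 9 peaks without a counterpart, 4 were in replicate 2 of A549 cells (42.9% reproduced, 95% exact binomial interval 9.9 to 81.6%, against 59% of all peaks of that list) and 3 in replicate 2 of HCT-116 cells (66.7%, interval 29.9 to 92.5%, against 46.5%). These intervals treat peaks as independent, although several lie at the same gene, and a shared site counts once in each list. Over all peaks the share was 82% in replicate 3 of A549 cells and 67.6 and 71.3% in replicates 1 and 2 of T47D cells. None of these 9 lay at the 5′ end of any of these genes except the peak at the start of MALAT1 in A549 cells. Some lay near the starts of other annotated transcripts, such as TALAM1.

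Among the lncRNA genes with a peak in the window, UCA1 was in the top 3.01% of 1993 genes in replicate 2 and the top 3.33% of 1050 genes in replicate 3 of HCT-116 cells. It was at 22.2 and 13.9% in replicates 1 and 2 of PC3 cells and at 73 and 45.1% in those of T47D cells. MIR210HG was at 25.9% of 576 genes and 3.15% of 1363 genes in replicates 1 and 2 of PC3 cells, and at 56.7% of 1555 and 72.1% of 1489 in those of T47D cells. NEAT1 was at 9.13 and 6.25% in replicates 1 and 2 of T47D cells, and at 62.7 and 21.6% in those of PC3 cells. These places use the best peak in the window. For NEAT1 that was the region downstream of the gene in both lists of PC3 cells and in replicate 1 of T47D cells. For UCA1 it was the region at the 3′ end in replicate 2 of PC3 cells. For both MIR210HG and NEAT1 the replicates of PC3 cells were far apart, and the test above detected no difference between lines.

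Likeness of lncRNA genes was taken as the Euclidean distance of log10 percentages of the best peak in the window over the 8 lists. Of 172 candidates with a peak in every list, those most like NEAT1 were ENSG00000228830 near IRF2BP2 (distance 0.46), ENSG00000289994 (0.60) and LINC02669 (0.60). The last 2 overlap and had the same range of percentages, 3.36 to 39.5%. For MIR210HG, of 173 candidates, they were ENSG00000273361 near CTDSP1 (0.95), LINC01588 (1.05) and, farther still, ENSG00000289123. The nearest candidates of MIR210HG were farther from it than those of NEAT1 were from NEAT1.

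Of 25 other lncRNA genes with a reported link to hypoxia, 23 were found by name in the annotation, and 7 of these had a site in at least 1 line, of which 6 are described here. A site was present at 5 of them in PC3, 6 in T47D, 5 in A549 and 5 in HCT-116 cells, against the background shares of all lncRNA genes given above. This list, too, was chosen with earlier results of these data known. HIF1A-AS3, transcribed within the locus of HIF1A, had a site at its 5′ end in all 4 lines, at 0.098 to 0.787%. LUCAT1 had a site in all 4 lines within its 259714 bp but not at its annotated 5′ end, at 0.113 to 4.3% with the 2 strongest values in A549 cells. Both ranked above MIR210HG and NEAT1 in all 8 lists, while UCA1, at 2.2%, ranked above LUCAT1 (2.61%) in replicate 3 of HCT-116 cells.

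PVT1, a long transcript next to MYC, had a site in PC3, T47D and A549 cells, HAS2-AS1 in PC3, A549 and HCT-116 cells, within 1 kb of the start of HAS2 in at least 1 of them, GAS5 in T47D and HCT-116 cells within 1 kb of the start of ZBTB37, and HOTAIR in T47D cells only, not at its own 5′ end but within 1 kb of the start of HOXC10. HOTAIRM1, CDKN2B-AS1, MIR31HG and SNHG1 each had a peak in 1 list only. The other 12, among them MEG3, KCNQ1OT1, NORAD and HIF1A-AS1, had no peak in any list, as was the case for H19. Having no peak was the usual state. A peak of either replicate was near 7.42% of all lncRNA genes in PC3, 10.3% in T47D, 4.99% in A549 and 11% in HCT-116 cells. The listed genes differ in length, and a longer gene has a wider window.

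**Figure D3:**
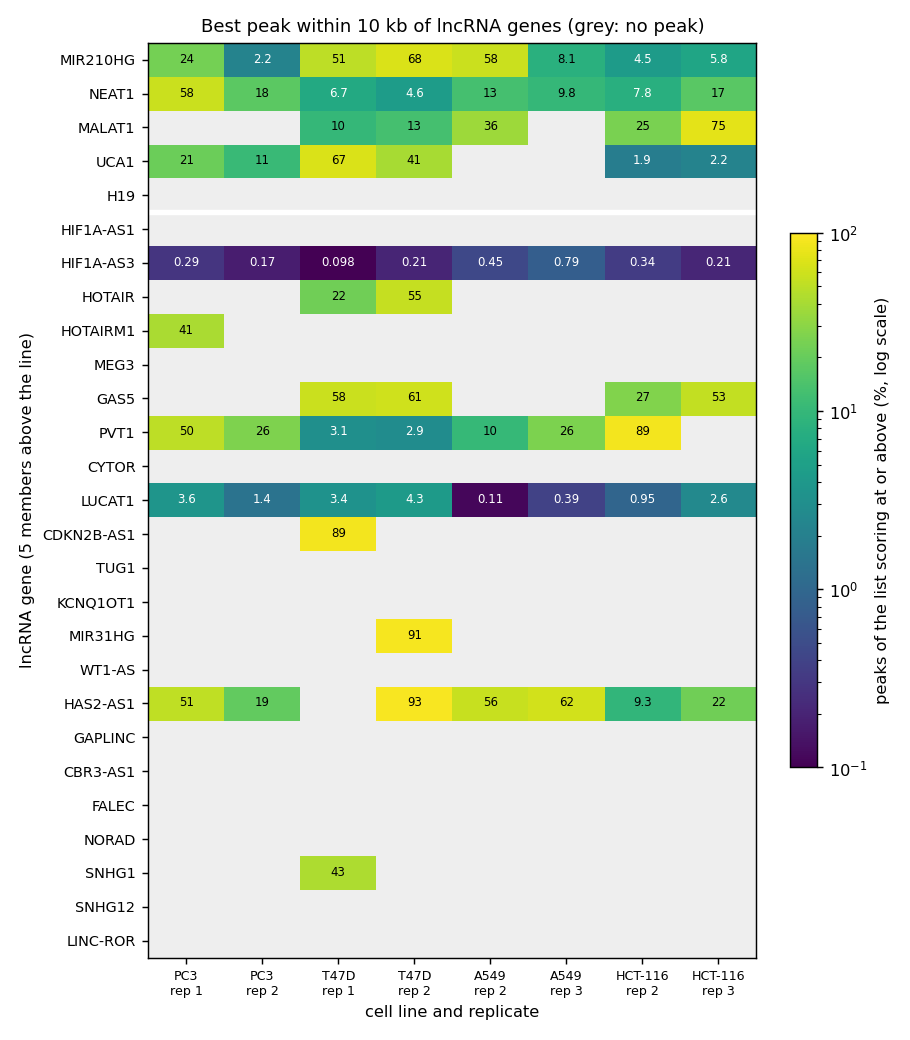
Best peak within 10 kb of each of the 5 lncRNA genes (above the white line) and of 22 other hypoxia-linked lncRNA genes, as the percentage of peaks of the list scoring at or above it (colour, log scale, with the value printed), in the 8 lists (columns). Grey cells have no peak. HIF1A-AS3 and LUCAT1 are strong in every list, MIR210HG and NEAT1 are present in every list, and H19 is grey throughout.

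The HIF core motif, ACGTG or GCGTG on either strand, was present in every site of these genes, 5 of 5 in PC3, 6 of 6 in T47D, 3 of 3 in A549 and 6 of 6 in HCT-116 cells. Of all sites 98.4, 96.3, 96.3 and 99% held it in the same order, and of equally long stretches 5 kb to either side 77.8, 79.5, 73.2 and 81.9%, so most sequences nearby held it too. In the interval shared by all peaks of a region, the start of MIR210HG held 6 motifs in 903 bp (6.64 per kb) at a GC content of 80.6%, and the start of NEAT1 held 7 in 1227 bp (5.70 per kb). The region downstream of NEAT1 held 3 in 753 bp, within its central part, and the start of MALAT1 held 2 in 1002 bp. At the start of UCA1 there was 1 motif in 1043 bp (0.96 per kb). Its middle lay 704 bp downstream of the 5′ end, the outermost of 22 annotated transcript starts.

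The region at the start of UCA1 thus combined the highest rank in HCT-116 cells with the lowest motif density of these 5 regions. Over the whole site its density was 0.77 per kb in PC3 cells, 0.81 in T47D cells and 0.64 in HCT-116 cells, and 92.6, 91.8 and 98.6% of the sites of those lines had at least that density, where the median site had 2.76, 3.28 and 3.76 per kb. In the central 200 bp of the site the motif was present in 4 of 5, 4 of 6, 3 of 3 and 5 of 6 sites of these genes, and in 73.6, 64.3, 71.1 and 73% of all sites. The start of UCA1 had none in its central 200 bp in any line. Its only motif, at 19:15939718-15939722, lay downstream of these 200 bp and inside the site. The lists give no summit, so its distance from where binding centred is unknown. A match to the motif describes the sequence and does not show that it was used.

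**Figure D4:**
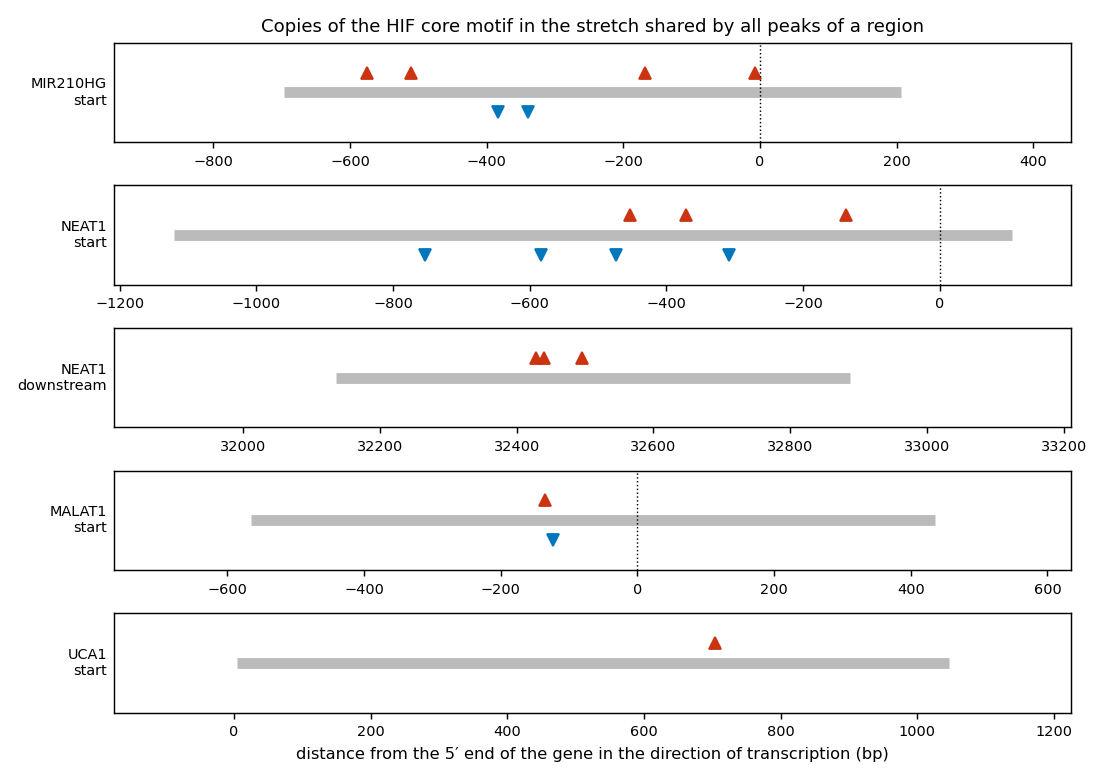
Copies of the HIF core motif in the interval shared by all peaks of each of 5 regions (grey bar), by distance in bp from the 5′ end of the gene (dotted line where it is in the interval). Upward triangles lie on the strand of the gene and downward triangles on the opposite strand. The starts of MIR210HG and NEAT1 hold 6 and 7 motifs, all upstream of the 5′ end, and the start of UCA1 holds 1, downstream of it.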

How the data were processed

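Peaks of HIF-1β ChIP-seq from 8 libraries of 4 cell lines were used as deposited, with 1 list per replicate on GRCh37 (hg19). Per the submitters' processing notes, which give no roles, Trim Galore 0.3.3, BWA 0.7.5a-r405, SAMtools 0.1.19, bedtools 2.17.0, Picard 1.106 and MACS were used. The authors called peaks with MACS and deposited a score for each. Non-immunized serum served as the control of the immunoprecipitation. The scale of the score and the control used in peak calling are not given in the sources used here, and the lowest value was close to 50 in every list. The study's methods also name T-PIC and keep peaks found by both callers, a step that the lists do not show. The lists hold intervals and not reads, so depth and the precision it gives are unknown, and scores were compared only as ranks within a list.

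Members were mapped to GENCODE release 44 lifted to GRCh37. Peaks overlapping the gene body extended by 10 kb were taken, and a site was formed by merging peaks of both replicates that shared 1 bp or more. Distances run from the 5′ end of the gene to the nearest edge of a peak. The 5′ end is the outermost annotated position of a gene, and other transcript starts are annotated (22 in all for UCA1, 40 for MALAT1). Positions of motifs relative to those other starts were not examined. The motif was counted on both strands, and copies of shared intervals were sought with BLAST 2.17.0. Named genes were the 5 members, the list of other hypoxia-linked lncRNAs, genes starting nearest to a peak, and the 3 lncRNA genes most like each member with a peak in all 8 lists. A further gene and a sequence are not reported here. The members and lists were chosen with earlier results of these data known. The alternatives were other windows, a 50% overlap, the higher-scoring 50% of each list, peaks of either replicate, each replicate left out, ranks as numbers or on a log10 scale, a replicate block, other transcript starts, peak centres and the central 200 bp of sites. Leaving out replicates in the rank test and in the distances, and testing the region at the start alone, were added after seeing the data. Counting and tests were tested on simulated data. Python 3.11.15, NumPy 2.4.6, SciPy 1.17.1, pysam 0.24.0, Matplotlib 3.10.9 and samtools 1.23.1 were used.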

Additional observations from a re-analysis of the deposited data

How the results depend on the processing

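The counts of genes with a site stayed within 1.5 times of the reported values except with the higher-scoring 50% of each list, where 2 genes had a site in T47D cells and 1 in A549 cells. With that setting 3 of the other hypoxia-linked lncRNA genes had a site in PC3 cells, and with a peak of either replicate 10 did in T47D cells. The share of all lncRNA genes with a site followed the window, as fewer or more bases were searched. For PC3, T47D, A549 and HCT-116 cells it was 1.73, 3.55, 1.51 and 2.91% in the gene body alone and 6.91, 13.2, 6.26 and 11.7% within 50 kb, and within 25 kb it was 4.49% in PC3 cells and 8.03% in HCT-116 cells. It was 1.56, 3.29, 1.59 and 2.91% with the higher-scoring 50% of each list and 7.42, 10.3, 4.99 and 11% with peaks of either replicate. With 1 replicate left out it was 3.08 to 7.29% in PC3 cells (7.29% without replicate 1), 3.34 to 4.42% in A549 cells (4.42% without replicate 3) and 5.61 to 10.7% in HCT-116 cells (10.7% without replicate 3). Measured from the centre of the peak, the median distance to the 5′ end over the 8 lists was 246 bp for MIR210HG, 590 bp for NEAT1, 554 bp for UCA1 and 121 bp for MALAT1 instead of 0 bp.

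In the exact permutation test of ranks, the adjusted p of UCA1 was 0.095 with ranks as numbers and ran from 0.038 to 0.11 when each library was left out (0.076 without replicate 2 of PC3 cells, 0.11 without either replicate of HCT-116 cells). That of NEAT1 ran from 0.095 to 0.37, and its direction turned at 0.37, without replicate 2 of T47D cells. The cause of these changes was not tested. With a replicate block MALAT1 passed the threshold (adjusted exact permutation p = 0.019). Libraries of different lines share only a replicate number, which the labels do not tie to a common source, so the numbers were not taken as a pairing. In regions with a peak in every list of both lines, deviations correlated at -0.03 over 429 regions for PC3 and T47D cells. For A549 and HCT-116 cells the value was 0.09 over 466 regions. Peaks missing from some lists, and replicate 2 across these pairs of lines, were not compared. Whether libraries of equal number shared a batch was thus not tested.

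With 2 replicates a line, unknown depth and no control library, a missing peak cannot be told apart from a peak below the limit of a list.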

Other observations

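The peak at the 5′ end of UCA1 lay partly over sequence that occurs elsewhere in the genome. The interval shared by its 6 peaks had 53 other matches of at least 90% identity, most of them under 300 bp. Counting matches of at least 300 bp, there were 7 places outside UCA1, of 453 to 472 bp, and all 7 matches took in the position of the only core motif at the start of UCA1. The motif itself, or another copy of it, was present in 5 of the 7. Peaks lay over 3 of the 7. The copy at chr19:15181097-15181565 (93.0% identity) had a peak in both replicates of PC3 cells, with scores of 258 and 865 (13.1 and 2.66% of peaks scoring at or above), and none in the other lines. The copy at chr19:48772974-48773445 (93.2% identity) had a peak in both replicates of HCT-116 cells, with scores of 148 and 55.7 (30.2 and 89.2%), and that at chr6:169077688-169078150 (91.5% identity) had one in replicate 2 of HCT-116 cells, with a score of 88.1 (55%). No copy had a peak in T47D or A549 cells. The copies were looked for after the peaks of UCA1 had been seen, and the part that reads shared between copies have in these peaks was not tested. The shared intervals at the starts of MIR210HG, NEAT1 and MALAT1 and downstream of NEAT1 had no match elsewhere at 90% identity.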
